A study of Caenorhabditis elegans with 2 samples.

Results

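The 261 genes that Ensembl release 115 annotates as microRNA genes on the nuclear chromosomes of Caenorhabditis elegans, of 46890 nuclear genes in all, were placed against binding sites of the T23F11.4 protein. All 261 were taken by their annotated biotype, so no measured value chose them. Their annotated spans had a median length of 95 bp and ran between 52 and 1732 bp. Binding had been mapped by chromatin immunoprecipitation and sequencing (ChIP-seq) in strain OP709. That strain carries the mutation unc-119(tm4063) and the transgene wgIs709, in which T23F11.4 is joined to TY1, EGFP and 3xFLAG tags and a copy of unc-119(+) makes up for the mutation. T23F11.4 is stably expressed from it, per the labels. Whole late embryos with a labelled age of 4 hours, of both sexes pooled and staged by egg bleaching, were treated with an antibody to green fluorescent protein. The series holds 1 group of 2 biological replicates. The labels name a possible control, which was not analysed here. All values therefore describe a tagged transgene product in a mixture of all embryonic cell types, with no second condition to set beside it.

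MicroRNAs are small RNAs cut from a hairpin precursor. The mature strand, held by an Argonaute protein, pairs mainly through its seed, bases 2 to 8, with messenger RNAs that are then less translated or less stable. MicroRNAs with the same seed form a family and often share targets. In C. elegans the mir-35 and mir-51 families are each needed for normal embryonic development, while lin-4 and let-7, the founding microRNA genes, time larval development. Most microRNA genes are transcribed by RNA polymerase II as longer primary transcripts, either from promoters of their own or within the introns of coding genes.

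Of the 261 microRNA genes, 15 (5.75%) had the summit of an optimal peak within 500 bp, where 2.55% of all nuclear genes did. The share over all genes is lowered by 15363 piRNA genes, of which 0.13% had one. Optimal peaks are the 635 nuclear regions that the authors kept by the irreproducible discovery rate, a measure of replicate agreement in rank. A further 105 microRNA genes had only a weaker region of the pooled list, called on both replicates together, and 141 had none within that distance. The 15 genes were mir-51, mir-52, mir-53, mir-55, mir-55b and mir-56, mir-58a and mir-80, mir-35 and mir-36, mir-73 and mir-74, mir-90, mir-229 and mir-1824. Neighbouring genes shared summits, so the 15 genes had 11 distinct strongest optimal summits.

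The mature sequences of the mir-51 family are shown because 5 of its 6 members had an optimal peak. They were read from RefSeq mature coordinates in the WBcel235 genome, 5′ to 3′, with the seed in capitals, and all 6 carry the seed ACCCGUA.
mir-51: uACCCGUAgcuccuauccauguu
mir-52: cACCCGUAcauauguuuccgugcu
mir-53: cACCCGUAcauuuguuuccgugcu
mir-54: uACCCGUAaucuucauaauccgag
mir-55: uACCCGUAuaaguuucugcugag
mir-56: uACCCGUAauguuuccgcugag

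The other mature strands shown, from the same source and with the seed in capitals, belong to 8 of the other genes with an optimal peak. mir-58a and mir-80 belong to the mir-58 family, the counterpart of fly bantam, and differ at the last base of the seed.
mir-58a: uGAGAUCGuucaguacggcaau
mir-80: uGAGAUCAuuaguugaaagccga
mir-35: uCACCGGGuggaaacuagcagu
mir-36: uCACCGGGugaaaauucgcaug
mir-73: uGGCAAGAuguaggcaguucagu
mir-74: uGGCAAGAaauggcagucuaca
mir-90: uGAUAUGUuguuugaaugccccu
mir-229: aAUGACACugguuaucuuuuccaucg

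The mir-51 peak was the strongest at any microRNA gene, and its summit lay outside the hairpin. The 201 bases around the pooled summit, chrIV:11026066-11026266 in WBcel235 on the minus strand, run below in the direction of mir-51 transcription. They are shown because they hold both a match to the B box core and the whole of the mir-51 mature strand given above. The B box is the internal promoter element of tRNA genes that the RNA polymerase III factor TFIIIC reads, and the match to its core, GTTCGANNC, is in capitals. It starts 3 bp downstream of the summit and lies within F36H1.17, a non-coding RNA gene of 89 bp at chrIV:11026131-11026219 on the same strand.
mir-51 summit: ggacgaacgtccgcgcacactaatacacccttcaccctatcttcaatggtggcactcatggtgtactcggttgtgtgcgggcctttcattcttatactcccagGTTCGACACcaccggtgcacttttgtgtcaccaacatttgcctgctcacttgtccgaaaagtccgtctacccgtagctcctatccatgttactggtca

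At mir-52, the second strongest, the 201 bases around the pooled summit, chrIV:14033840-14034040 on the plus strand, hold no B box core. They are shown beside those of mir-51 because the mature sequences of both genes share a seed.
mir-52 summit: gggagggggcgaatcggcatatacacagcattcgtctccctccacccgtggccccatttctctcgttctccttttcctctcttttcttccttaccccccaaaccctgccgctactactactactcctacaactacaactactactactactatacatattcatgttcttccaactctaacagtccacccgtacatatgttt

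At mir-229 the 201 bases around the pooled summit, chrIII:2171883-2172083 on the plus strand, hold runs of CACACACA, in capitals. They are shown as the example of 3 member summits with that repeat.
mir-229 summit: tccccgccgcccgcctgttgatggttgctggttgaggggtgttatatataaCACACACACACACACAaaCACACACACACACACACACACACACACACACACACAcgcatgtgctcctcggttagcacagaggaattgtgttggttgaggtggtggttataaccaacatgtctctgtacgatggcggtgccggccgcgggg

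Replicates were compared through ranks, since the signal that the authors gave each region differed in scale between lists. The pooled list held 29999 nuclear regions, that of replicate 1 29994 and that of replicate 2 25794. Their median signals were 47.1, 20.5 and 33.8. The sources used here do not say how signal relates to read depth, and no error from depth could be set. With 1 group and 2 replicates no test between conditions is possible, and the counts below carry no p-value.

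Within the mir-51 family the strongest and the weakest region differed widely. The region at mir-51 had a signal of 197.8 (rank 14) in replicate 1 and 297.1 (rank 16) in replicate 2, and 495.9 (rank 15) in the pooled list. The region at mir-52 had 105.0 (rank 72) in replicate 1 and 282.8 (rank 18) in replicate 2, and 375.9 (rank 33) in the pooled list. Both genes were thus near the top of each list. mir-52 had a further optimal summit 200 bp downstream of the first, with a pooled signal of 137.4 (rank 387), and another stood 1011 bp upstream of the first, with 138.4 (rank 377), outside the 500 bp limit.

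The other family members lay near the lower end of the optimal set, in which the lowest signal was 115.7 and the median 146.6. mir-53, 1480 bp from mir-51 on the same strand, had 65.6 (rank 246) in replicate 1 but 48.7 (rank 3359) in replicate 2, and 120.9 (rank 565) in the pooled list. mir-55 and mir-56, which lie in an intron of F09A5.3 on the opposite strand, shared a region of pooled signal 126.7 (rank 498) with mir-55b. mir-55b is annotated on the strand opposite mir-55 and overlaps it. The strongest region of these 3 genes had 55.6 (rank 354) in replicate 1 and 115.5 (rank 217) in replicate 2. Its summit differed between replicates: in replicate 1 it lay within mir-55 and in replicate 2 469 bp away. The remaining member, mir-54, is the next hairpin of that cluster and had no optimal summit within 500 bp. Its region had 55.6 (rank 354) in replicate 1, the same region as at mir-55, and 60.3 (rank 1377) in replicate 2, and 96.6 (rank 1076) in the pooled list. The median pooled rank over the 6 genes was 498, against 6564.5 over all 120 microRNA genes with a pooled region.

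**Figure D1:**
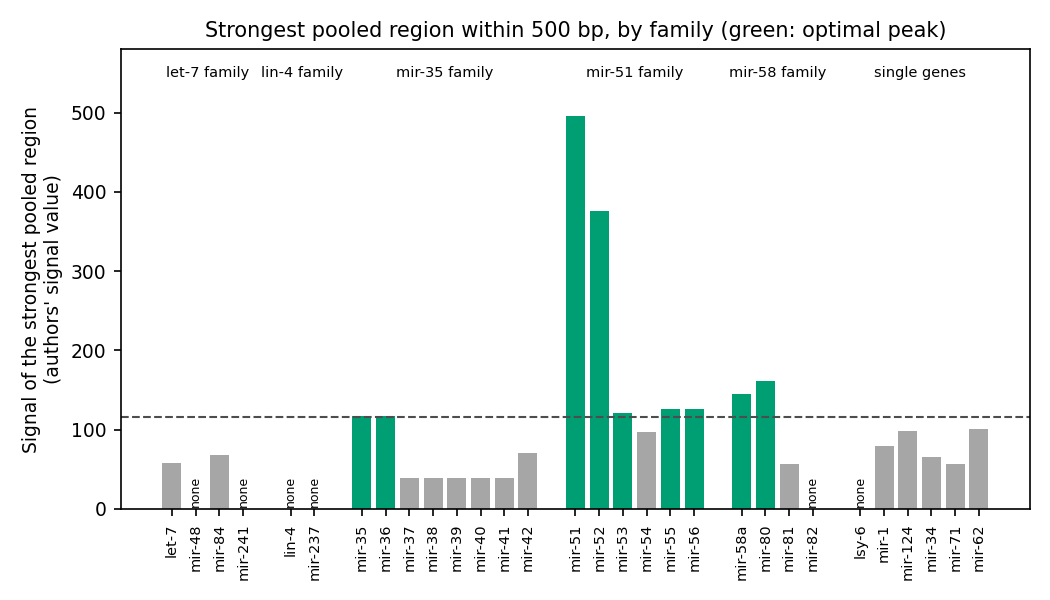
Signal of the strongest pooled region within 500 bp (authors' signal value, vertical axis) for each gene of the microRNA families and the single genes examined, with genes along the horizontal axis; green bars are optimal peaks, grey bars weaker regions, "none" marks genes without a region, and the dashed line is the lowest optimal signal, 115.7. mir-51 and mir-52 stand at 495.9 and 375.9, and no other gene shown exceeds 161.3.

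Both mir-58 family genes with an optimal peak ranked higher in replicate 2 than in replicate 1. This family acts on growth and on signalling through the TGF-beta pathway. mir-80 had 44.8 (rank 714) in replicate 1 and 116.0 (rank 212) in replicate 2, and 161.3 (rank 265) in the pooled list. mir-58a, in an intron of Y67D8A.2 on the same strand, had 50.8 (rank 473) in replicate 1 and 109.9 (rank 239) in replicate 2, and 145.5 (rank 325) in the pooled list. Of the other listed members, mir-81 had a pooled signal of 56.5 (rank 8483) and no region in replicate 1, and mir-82 had no region in any list. The seed of mir-80, mir-81 and mir-82 is also carried by mir-58b, mir-58c and mir-2209a, none with an optimal peak. mir-58c had a pooled signal of 40.8 (rank 21714), mir-2209a had 68.1 (rank 4242), and mir-58b had no pooled region.

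The mir-35 family is encoded by mir-42 and by 7 hairpins within 797 bp, mir-35 to mir-41, inside an intron of Y62F5A.9 on the opposite strand. The 2 hairpins nearest the start of the cluster, mir-35 and mir-36, shared an optimal summit 321 bp upstream of mir-35. Its signal was 47.0 (rank 605) in replicate 1 and 70.3 (rank 811) in replicate 2, and 117.3 (rank 606) in the pooled list, close to the lowest of the set. The other 5 hairpins of the cluster lay farther from it and had only a region of 39.4 (rank 23478) within 500 bp. mir-37 to mir-40 lay within 1000 bp of the optimal summit, so the count for this cluster depends on the distance allowed. mir-42 had a region of its own with a pooled signal of 70.2 (rank 3733).

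mir-73 and mir-74, which share the seed GGCAAGA, also shared a summit, 153 bp upstream of mir-73. It had 63.3 (rank 273) in replicate 1 and 55.7 (rank 1878) in replicate 2, and 119.2 (rank 588) in the pooled list. mir-75, the third hairpin of that cluster, had no pooled region. The 4 other genes with this seed had no optimal peak: mir-72 had a pooled signal of 66.0 (rank 4823), mir-8187 had 91.8 (rank 1284), and mir-266 and mir-8188 had none.

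mir-90 had the third strongest peak among microRNA genes. It lies in an intron of K01F9.2 on the same strand, and its region had 74.1 (rank 176) in replicate 1 and 100.5 (rank 294) in replicate 2, and 179.1 (rank 220) in the pooled list. mir-229, in an intron of gcn-1, whose product acts in the general control of translation, had 45.9 (rank 656) in replicate 1 and 80.0 (rank 555) in replicate 2, and 121.7 (rank 551) in the pooled list. The 3 hairpins that follow mir-229 in its cluster, mir-64, mir-65 and mir-66, share its seed. They had a region of 51.3 (rank 11648), present in replicate 1 and not in replicate 2. mir-63, the remaining gene with that seed, had a pooled signal of 65.4 (rank 4996) and no optimal peak. mir-1824 had 35.6 (rank 1903) in replicate 1 and 79.9 (rank 557) in replicate 2, and 119.4 (rank 585) in the pooled list. Genes that share a seed with mir-90 (mir-50 and mir-62) or with mir-1824 (mir-34 and mir-4933) had no optimal peak.

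All 15 genes with an optimal peak had a region in both replicates, but fewer ranked as high in each. Within the 635 strongest regions, 12 of the 15 had theirs in replicate 1 and 10 in replicate 2. Counted over all microRNA genes, 7 (2.68%) had such a region in both replicates, where 1.71% of all nuclear genes did. The share was higher for tRNA genes (19.8%), snoRNA genes (14.7%), snRNA genes (5.43%) and other ncRNA genes (2.9%). It was 1.85% for protein-coding genes and 0.0586% for piRNA genes, which lower the share over all genes. The 7 microRNA genes were mir-51, mir-52, mir-55, mir-55b, mir-56, mir-58a and mir-90. At mir-55, mir-55b and mir-56, which share their regions, the summits of the replicates lay 469 bp apart. These 3 genes thus counted through a different summit in each replicate. Replicate 1 alone placed mir-2, mir-54, mir-8187 and mir-8192 there without an optimal peak, and replicate 2 alone placed mir-62. mir-2, which ranked 609 in replicate 1, ranked 19972 in replicate 2, and mir-8192 had no region in replicate 2.

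**Figure D2:**
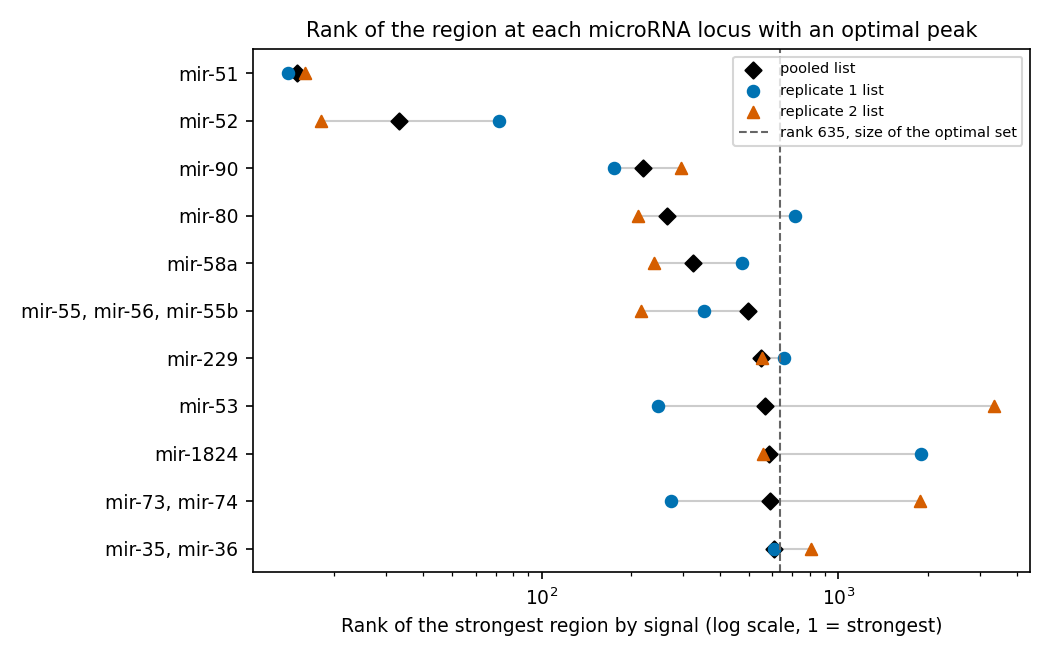
Rank by signal (horizontal log axis, 1 is the strongest) of the strongest region at each of the 11 loci with an optimal peak, in the pooled list and in the lists of replicate 1 and replicate 2; genes that share a summit share a row, and the dashed line is rank 635. mir-51 and mir-52 stay at or above rank 72 in every list, while mir-53 has rank 246 in replicate 1 and 3359 in replicate 2.

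The share of microRNA genes with a region of any strength was below that of tRNA, protein-coding, snoRNA and other ncRNA genes. It was above the share over all nuclear genes, which piRNA genes lower. Of the 261 microRNA genes, 120 (46.0%) had any region of the pooled list within 500 bp, where 40.0% of all nuclear genes did. In replicate 1 the number was 115 (44.1%), where 40.2% of all nuclear genes had a region, and in replicate 2 110 (42.1%), where 36.9% did. By class, the share with a pooled region was 72.7% for tRNA, 60.7% for protein-coding, 56.9% for snoRNA and 48.5% for other ncRNA genes. It was 41.9% for snRNA genes and 7.52% for the 15363 piRNA genes. The latter lower the share over all genes, so exceeding that share does not set microRNA genes above most other classes. Both replicates had a region at 76 microRNA genes, replicate 1 alone at 39, replicate 2 alone at 34 and neither at 112. The 105 genes without an optimal peak had a median signal of 51.3 and a median rank of 11648, and their signals ran between 35.1 and 114.2. Across genes with a region in both replicates, Spearman's rho of the signals was 0.512 over 63 distinct pairs of regions, and 0.245 over the 52 pairs left without the genes with an optimal peak. These pairs come from 2 libraries and are not independent samples.

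mir-4929 stood just outside the optimal set, with 44.1 (rank 754) in replicate 1 and 65.4 (rank 1000) in replicate 2, and 114.2 (rank 665) in the pooled list. After it came mir-8186-1 and mir-8186-2, which share a region of 103.1 (rank 885), and mir-62, a hairpin formed by a spliced intron, with 101.4 (rank 933). mir-124, which is expressed in sensory neurons, had 98.8 (rank 1012), mir-87 had 97.3 (rank 1059), and mir-86 and mir-8211 shared 94.5 (rank 1154). mir-54, described above, and mir-4936, with 92.0 (rank 1272), complete the 10 strongest of these genes. mir-62 ranked 1621 in replicate 1 and 576 in replicate 2, and mir-124 ranked 1713 and 980 in those lists.

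Genes that time larval development had no optimal peak. Of the 5 genes with the let-7 seed, let-7 had a pooled signal of 58.2 (rank 7676), mir-84 had 68.1 (rank 4253), mir-795 had 36.8 (rank 27113), and mir-48 and mir-241 had no region in any list. The annotated span of let-7, 1732 bp, is far longer than its hairpin. Its pooled summit lay 493 bp from the nearest mature strand, and the summit of replicate 2 lay 330 bp from it. lin-4 and mir-237, which share a family, had no pooled region, and lin-4 had only a region of 19.3 (rank 17569) in replicate 1. lsy-6, which sets the left-right difference of a pair of taste neurons, had no region. The muscle microRNA mir-1 had a pooled signal of 80.0 (rank 2266). mir-34 and mir-71, which act in stress responses and lifespan, had 65.5 (rank 4965) and 57.0 (rank 8231).

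The share of genes with an optimal peak varied among gene classes. It was 5.75% for microRNA genes, against 27.5% for tRNA genes (168 of 612), 16.8% for snoRNA genes (58 of 346), 6.2% for snRNA genes (8 of 129), 4.28% for other ncRNA genes (332 of 7764) and 2.87% for protein-coding genes (574 of 19973). For piRNA genes it was 0.13% (20 of 15363). Gene length was not matched between classes, and a long gene offers more sequence for a summit to fall near. The differences were not tested.

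**Figure D3:**
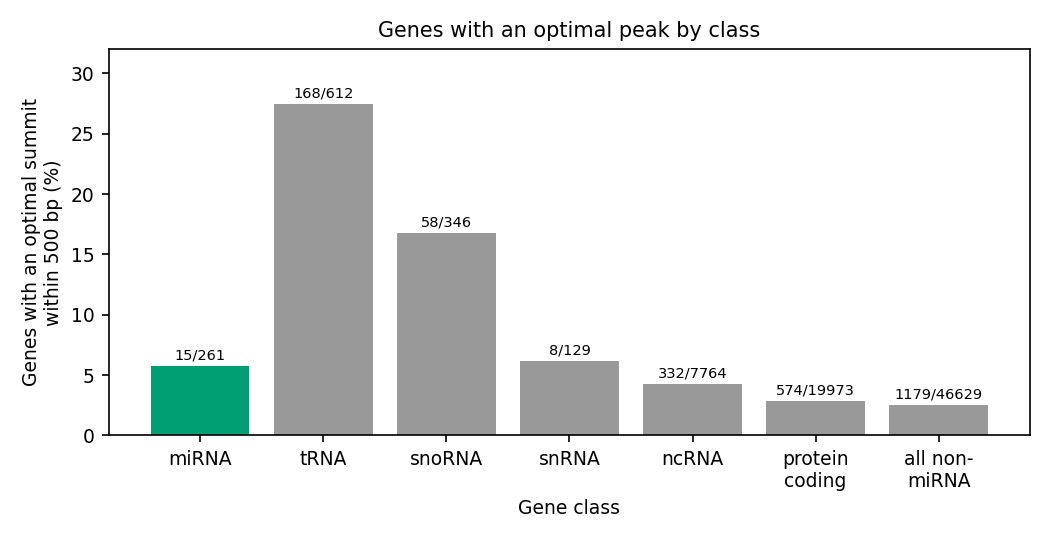
Share of the genes of each class with an optimal summit within 500 bp (percent, vertical axis starting at 0), with counts above the bars. piRNA genes have no bar of their own and are part of the bar of all non-microRNA genes, whose share they lower. microRNA genes (green, 5.75%) stand below tRNA genes (27.5%) and snoRNA genes (16.8%) and near snRNA genes (6.2%).

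Most of the optimal summits lay upstream of the hairpin. At 12 of the 15 genes (80.0%) the summit was upstream of the annotated start, at 3 downstream of the end, and at 0 inside. The median position was 198 bp upstream of the start, and positions ran between 469 bp upstream and 506 bp downstream of it. Of the 105 genes with a weaker region only, 64 (61.0%) had the summit upstream, 10 inside and 31 downstream. Counted by gene, the side differed with the annotation at the summit. All 9 genes with an ncRNA gene within 500 bp of it had it upstream, while of the other 6 genes 3 had it upstream and 3 downstream. Genes that share a summit are counted apart here: mir-35 with mir-36 and mir-73 with mir-74 among the 9, and mir-55, mir-55b and mir-56 among the 6. The values given for the 15 genes are those of the strongest summit within 500 bp, and at some a far weaker one lay nearer the hairpin. The nearest pooled summit had a signal of 39.5 (rank 23416) at mir-58a, 39.4 (rank 23478) at mir-35 and mir-36, and 51.3 (rank 11648) at mir-229. It had 96.6 (rank 1076) at mir-55 and mir-55b and 137.4 (rank 387) at mir-52. Since mir-55 and mir-55b face opposite ways and share 1 summit, the same summit is downstream of the first and upstream of the second. Only mir-51, mir-52, mir-53, mir-73 and mir-80 had an optimal summit within 200 bp, and the same 5 genes had an optimal interval that overlapped the hairpin. The strongest summits of the 2 replicates lay a median of 54 bp apart at the 15 genes, and within 50 bp at 7 of them.

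**Figure D4:**
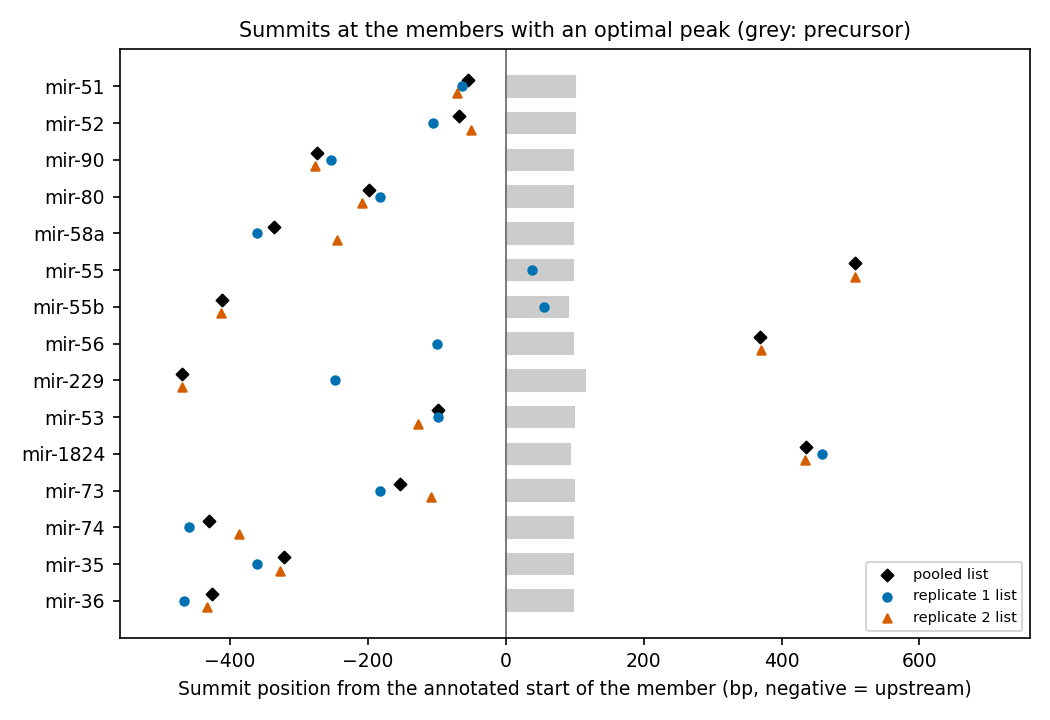
Position of the strongest summit in the pooled list and in each replicate, in bp from the annotated start of the gene in its direction of transcription (horizontal axis, negative is upstream), for the 15 genes with an optimal peak; grey boxes are the annotated precursors. Pooled summits lie upstream at 12 genes, and at mir-55, mir-55b and mir-56 the summit of replicate 1 is far from that of replicate 2.

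The 11 summits were seldom near the start of a coding gene. A coding transcript started within 1000 bp at 1 of the 11 summits (9.09%), against 38 of the 91 weaker summits at microRNA genes (41.8%), 57.0% of all 635 optimal summits and 44.9% of the other 29364 pooled regions. The exception was mir-1824 on chromosome I, whose summit lay 100 bp from the start of Y87G2A.18 and 160 bp from that of Y87G2A.1, 2 coding genes that face apart. The median distance to a coding start was 2817 bp at the 11 summits and 758 bp over all optimal summits. The 11 and the 91 summits were picked for lying within 500 bp of a hairpin, while the other sets were not. These differences were not tested. By annotation, 6 of the 15 genes were intergenic, 4 lay in an intron of a coding gene on the same strand and 5 in an intron on the opposite strand. Of all 261, 152 were intergenic, 68 lay in a same-strand intron and 31 in an opposite-strand intron.

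Non-coding RNA genes of other kinds were annotated beside most of these summits. At 0 of the 15 genes did a tRNA, snoRNA or snRNA gene lie within 500 bp of the summit, although those classes had the highest shares of optimal peaks. At 9 of the 15 genes (60.0%) an ncRNA gene did, against 31 of the 105 genes with a weaker region (29.5%). Counted by summit, this was 7 of 11 (63.6%), against 25 of the 91 weaker summits at microRNA genes (27.5%). It was 38.3% for all optimal summits and 10.6% for other pooled regions. The 11 summits were picked for lying within 500 bp of a hairpin, and some annotated ncRNA genes overlap hairpins. The 91 weaker summits were picked in the same way, but all optimal summits and other pooled regions were not. The contrast with the sets not picked so cannot show that the peaks go with ncRNA genes. The difference from the 91 weaker summits was not tested. At mir-51, mir-52 and the mir-73 pair the summit itself lay inside an ncRNA gene, namely F36H1.17, a gene of 448 bp at chrIV:14033557-14034004 and T24D8.11, and at mir-35, mir-58a, mir-80 and mir-90 an ncRNA gene overlapped a hairpin of the locus. Which of the overlapping annotations a peak belongs to cannot be told apart in these lists. Among the weaker regions, mir-1829c and mir-8207 had a tRNA gene at the summit, and mir-239b and mir-5546 a snoRNA gene.

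**Figure D5:**
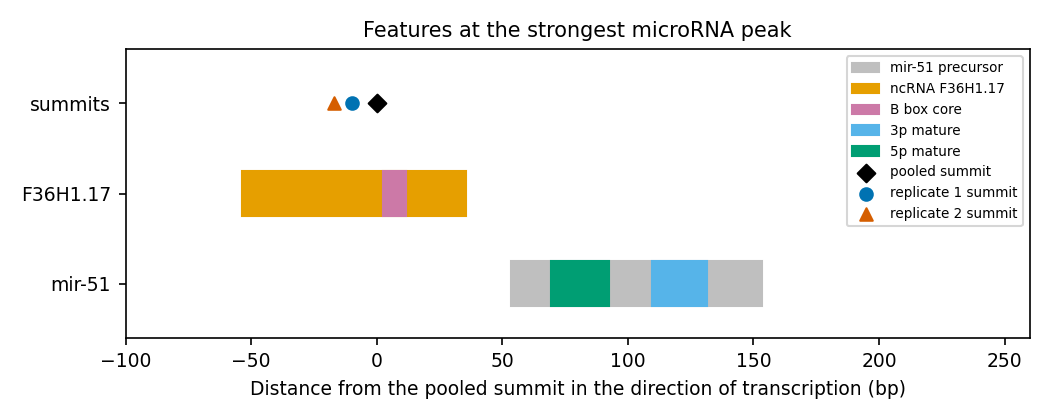
Features at the mir-51 peak, in bp from the pooled summit in the direction of transcription (horizontal axis): the annotated mir-51 precursor with its mature strands, the ncRNA gene F36H1.17 with the B box core match, and the pooled and replicate summits. The 3 summits lie within 17 bp of each other inside F36H1.17, and the precursor starts 54 bp downstream of the pooled summit.

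The B box core GTTCGANNC, searched on both strands within 100 bp of the summit, was present at 1 of the 11 optimal summits (9.09%), that of mir-51. It was present at 3 of the 91 weaker summits at microRNA genes (3.3%), at 20.5% of all 635 optimal summits and at 2.03% of other pooled regions. The repeat CACACACA, also searched on both strands and chosen after these windows were seen, was present at 3 of the 11 (27.3%), those of mir-90, mir-229 and the mir-73 pair. It was present at 6 of the 91 weaker summits (6.59%), at 11.3% of all optimal summits and at 2.68% of other pooled regions. None of the 11 windows held both motifs. Median GC content within 100 bp was 52.2% at the 11 summits, 42.8% at the 91 weaker ones, 47.8% at all optimal summits and 40.3% at other pooled regions. Whether GC content or repeats bear on the signal was not tested.

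Genes with an optimal peak were often in clusters and families. Neighbours on the same strand with at most 5 kb between them were joined into 24 clusters of 2 or more genes, with 69 of the 261 genes in them. Of the 15 genes, 10 were in such a cluster, against 29 of the 105 with a weaker region and 30 of the 141 with none. A seed shared with another gene was held by 13 of the 15 (86.7%), against 46 of 105 (43.8%) and 50 of 141 (35.5%). Since clustered genes share summits and the mir-51 family supplies 5 of the 15, these genes are not independent of each other. By chromosome the 15 were 4 of 50 genes on IV, 3 of 27 on III, 5 of 74 on X, 2 of 49 on II, 1 of 33 on I and 0 of 28 on V.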

How the data were processed

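ChIP-seq was measured in 2 biological replicates of 1 group. The peak lists were used as deposited: 1 per replicate, 1 on both replicates pooled, and the optimal set, in ce11 per the labels. The signal of each region was computed by the authors. For the aligner, the caller and the rate cutoff, the names and settings were not given in the sources used here. Depth is unknown. A single mitochondrial optimal peak was not used.

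For each microRNA gene the region with the highest signal whose summit lay within 500 bp of the gene span was taken from each list, and regions were ranked by signal within the nuclear chromosomes. Genes came from Ensembl release 115 and mature sequences from RefSeq coordinates, both on WBcel235, the assembly of ce11; 260 of 261 genes matched. Genes named are those with an optimal peak, the 10 next strongest, and listed families; others were named after their values were seen. Members and lists were chosen with earlier results of these data known. Assignment was tested on simulated data. Alternatives were other distances, replicates, region numbers and windows. Python 3.11.15, numpy 2.4.6, pandas 2.3.3, scipy 1.17.1 and matplotlib 3.10.9 were used.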

Additional observations from a re-analysis of the deposited data

How the results depend on the processing

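The number of microRNA genes with an optimal peak depended on the distance allowed. It was 15 at 500 bp, 5 at 200 bp, 23 at 1000 bp and 36 at 2000 bp, the last distance being chosen after seeing the data. It was 4 with only the 317 strongest optimal peaks, 5 when the interval had to overlap the gene, and 6 without genes that had a tRNA, snoRNA, snRNA or ncRNA gene at the summit. With the 635 strongest regions of 1 replicate in place of the optimal set it ran between 11 and 16. Any pooled region was present at 71 genes at 200 bp, against 120 at 500 bp, and between 110 and 115 genes had a region with 1 replicate. Genes among the strongest regions of both replicates numbered 3 with 317 regions, 12 with 1270 and 2 at 200 bp, against 7. The median pooled rank of the 15 genes, 498, became 588 with the nearest summit, under which mir-58a, mir-35, mir-36 and mir-229 moved to ranks between 11648 and 23478, and 588 over those with a region at 200 bp. Their median summit position, -198 bp, became -93.5 bp over all genes with a pooled region and 135.5 bp over the genes with no RNA gene of those classes at the summit, and ran between -208 and -182 bp with 1 replicate. Those 6 genes were split, with the summit upstream of 3 and downstream of 3, and mir-55, mir-55b and mir-56 among them share a summit. The cause was not tested. No paired analysis was possible because the series holds 1 group.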
